A study of Mus musculus with 4 samples.

Results

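Interferon-stimulated genes were examined in primary hepatocytes of mice with and without Prom1, which encodes a cholesterol-binding glycoprotein of membrane protrusions. The members were 44 named genes, taken by symbol from the 22079 genes of the deposited table: interferon-induced antiviral effectors, guanylate-binding and immunity-related GTPases, sensors of nucleic acids, and transcription factors of the IRF and STAT families. All 44 had a row, and 41 reached a mean of 1 FPKM (fragment counts divided by transcript length and library depth) over the libraries and were tested, out of 10407 genes tested in all. The libraries were 2 from wild-type mice (WT 1 and WT 2) and 2 from Prom1-/- mice (KO 1 and KO 2), described as biological replicates. All animals were male C57BL/6 mice of 8 weeks. Hepatocytes attached for 4 hours in medium with 10% FBS and 10 nM dexamethasone, and were then kept overnight without serum, in both genotypes. No interferon, virus or nucleic acid was added, so the levels below are those of unstimulated cultures. The labels do not say how the Prom1 allele was made, in which cells it is deleted or whether animals were pooled.

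Interferons are secreted proteins that warn cells of infection. Type I interferons bind the receptor IFNAR1-IFNAR2 and, through the kinases JAK1 and TYK2, lead to a complex with STAT2 and IRF9 that binds the interferon-stimulated response element (ISRE). Interferon gamma acts through the gamma-activated sequence (GAS) and induces IRF1, which can also bind ISRE-like sites. Hepatocytes carry receptors for these interferons, and low basal expression of the induced genes is usual in unstimulated tissue.

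The promoters of several members are shown because they hold the sequences through which the group is known to respond. RefSeq promoter windows on GRCm38.p6, the patch release of mm10, ran from 250 bases before to 50 bases after a transcription start, and were found for 33 of the 44 members. Both strands were searched for the ISRE core, read as GAAA, NN and GAAA in a row, and for GAS as TTCNNNGAA. The stretches below are the 160 bases that precede the start of the gene, written 5′ to 3′ on the gene's strand, with ISRE and GAS matches in capitals. In Rsad2, Ifit3 and Isg15 the capitals mark ISRE matches, which read TTTC, NN and TTTC where they lie on the other strand. In Igtp the first run of capitals is GAS and the second is ISRE, and in Irf1 the capitals mark GAS.
Rsad2 (chr12:26456453-26456612, minus strand): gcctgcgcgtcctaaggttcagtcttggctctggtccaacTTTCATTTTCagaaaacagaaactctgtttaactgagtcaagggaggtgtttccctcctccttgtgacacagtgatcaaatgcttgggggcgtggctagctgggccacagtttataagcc
Ifit3 (chr19:34583369-34583528, plus strand): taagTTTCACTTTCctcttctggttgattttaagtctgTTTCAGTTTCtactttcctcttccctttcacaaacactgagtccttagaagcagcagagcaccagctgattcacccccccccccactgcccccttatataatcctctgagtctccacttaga
Isg15 (chr4:156200819-156200978, minus strand): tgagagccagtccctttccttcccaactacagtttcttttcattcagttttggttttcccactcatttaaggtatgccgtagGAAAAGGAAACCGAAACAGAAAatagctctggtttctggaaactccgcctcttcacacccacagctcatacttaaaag
Igtp (chr11:58199396-58199555, plus strand): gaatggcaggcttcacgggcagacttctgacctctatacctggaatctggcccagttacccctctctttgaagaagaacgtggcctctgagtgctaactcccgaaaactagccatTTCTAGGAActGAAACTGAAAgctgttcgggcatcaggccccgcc
Irf1 (chr11:53769854-53770013, plus strand): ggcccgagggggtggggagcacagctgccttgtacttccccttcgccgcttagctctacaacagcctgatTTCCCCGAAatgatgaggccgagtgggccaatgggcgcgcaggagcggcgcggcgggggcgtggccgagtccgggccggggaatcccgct

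An ISRE core was found in a window of 19 of 33 members (57.6%) and of 3.99% of all 27025 genes with a window. GAS was found for 9 of 33 members (27.3%) and for 9.55% of all genes. Of all 32851 windows, 3.44% held the ISRE core and 8.3% held GAS. Isg15 had 3 ISRE matches in a row, which begin 78, 72 and 66 bases before the start and overlap each other. Igtp and Irgm2 each had a GAS match followed by an ISRE match. In Bst2 a GAS match that begins 136 bases before the start overlapped the first of its 2 ISRE matches. A match describes letters and not a bound site, and a window without one says nothing of the factors.

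**Figure D1:**
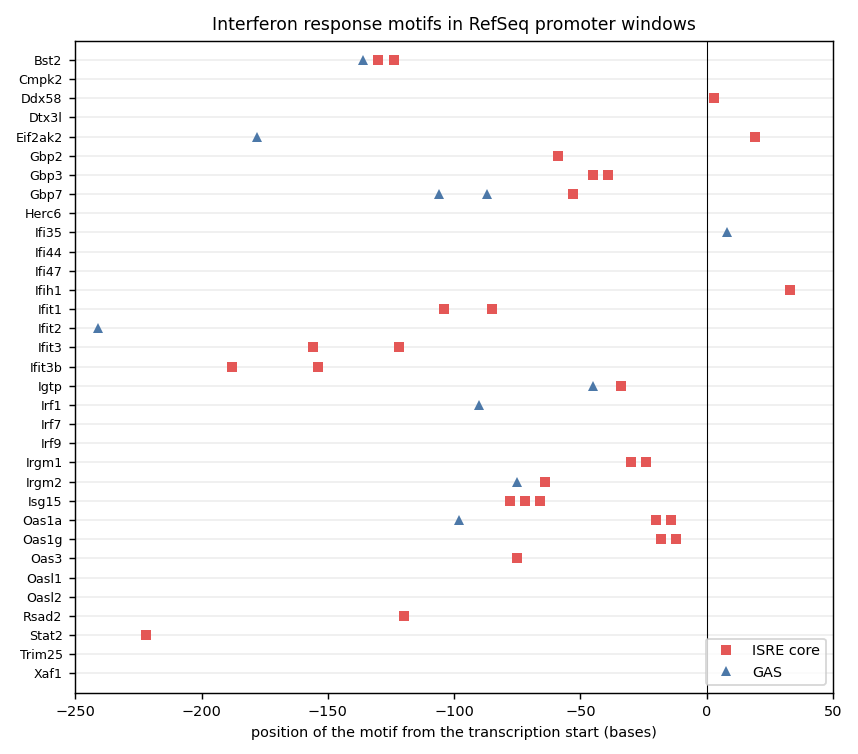
Position of ISRE core (squares) and GAS (triangles) matches in the RefSeq promoter windows of 33 members, in bases from the transcription start (vertical line). ISRE matches were present for 19 members and GAS matches for 9, most of them before the start.

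Prom1, the deleted gene, had 0.571 (WT 1) and 1.22 FPKM (WT 2) and was near absent from the KO libraries, with a listed 0 (KO 1) and 0.0458 FPKM (KO 2). Its log2(FPKM + 1) differed by -0.87 (SE 0.19, limma adjusted p = 0.755 over 15152 genes with a value). Hepatocyte markers were present in all libraries, such as Apoa1, an apolipoprotein, at 5505 to 6228 FPKM, while Alb, the albumin gene, was listed at 0 in WT 2 only, which can be a failed estimate. The estimated depth of a library was 15400000 to 17500000 fragments. The number of genes at 1 FPKM or more was 10327 to 10424. Across all genes tested, 0 had an adjusted p under 0.05 by limma, so that no gene was called in this comparison.

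As a group the members stood lower without Prom1. They were chosen with earlier results of these data known, so the counts below describe the list and test nothing. Members that follow the same order of libraries are also not separate observations. The mean log2(FPKM + 1) was lower in KO for 40 of 41 members, against 50.3% of all genes tested, and the exception was Ifit2. The median difference was -0.31 on the log2 scale, with a range from -0.80 to 0.03, while the median over all genes tested rounded to -0.00. For 26 of 41 members every KO value was under every WT value, against 19.8% of all genes tested, and for 0 members every KO value was above, against 18.3%. In bulk libraries, fewer cells of a type and less RNA per cell cannot be told apart. By limma with Benjamini-Hochberg adjustment 0 of 41 members passed, against 0.0% of all genes, and the adjusted p of the members ran from 0.519 to 0.995. At an unadjusted limma p under 0.05 there were 12 members, all lower in KO, while 7.29% of all genes passed that threshold, 4.19% lower and 3.1% higher in KO. The count of members depended on the library left out, and so did the count over all genes tested. For a single value, the smallest two-sided p that exact permutation of these 4 libraries allows is 0.333.

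**Figure D2:**
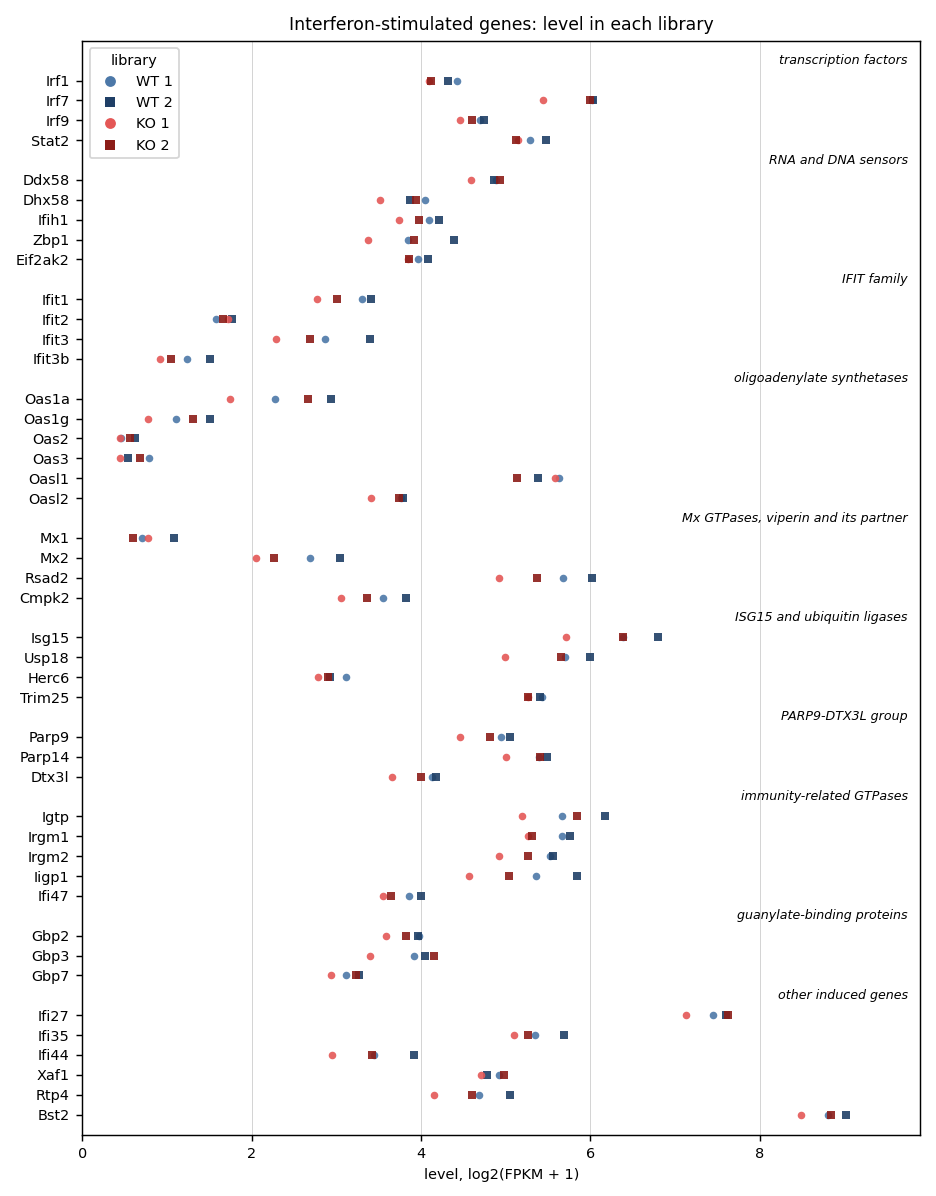
Level of each of the 44 members in each library, as log2(FPKM + 1), ordered by role, with WT libraries in blue and KO libraries in red. KO 1 (light red circles) is the lowest point for 39 members and WT 2 (dark blue squares) the highest for 33.

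The libraries were ordered in much the same way from member to member. WT 2 was the highest library for 33 of 44 members and KO 1 the lowest for 39. Among the 41 tested, 29 members had WT 2 highest and KO 1 lowest together, an order seen in 13.8% of all genes tested. The median level of the tested members, relative to each gene's mean over the libraries, was 0.08 (WT 1), 0.23 (WT 2), -0.32 (KO 1) and -0.02 (KO 2) on the log2 scale. WT 1 and KO 2 thus lay close together, between the highest WT and the lowest KO library. The summed level was 1619 (WT 1), 1850 (WT 2), 1230 (KO 1) and 1577 FPKM (KO 2), of which Bst2 and Ifi27 made up 38.4% to 41.5%. Without those 2 genes the sums were 998, 1139, 731 and 922 FPKM in the same order.

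The spread within a genotype was of the same order as the difference between genotypes. WT 2 minus WT 1 had a median over members of 0.14, with 33 of 41 members higher in WT 2. KO 2 minus KO 1 had a median of 0.34, with 37 of 41 higher in KO 2, so the KO replicates differed from each other by as much as the genotypes did on average. Of the pairs across genotypes, KO 1 was below WT 1 for 40 members (median -0.40) and below WT 2 for 40 (median -0.53). KO 2 was below WT 2 for 36 members (median -0.24) and below WT 1 for 28 (median -0.10). The medians over all genes tested lay between -0.02 and 0.02 in these 6 pairs. Without KO 1 the median difference between genotypes was -0.18, with 35 of 41 members lower, and without KO 2 it was -0.45, with 39 lower. Without WT 1 it was -0.35 and without WT 2 it was -0.26, each with 40 lower.

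**Figure D3:**
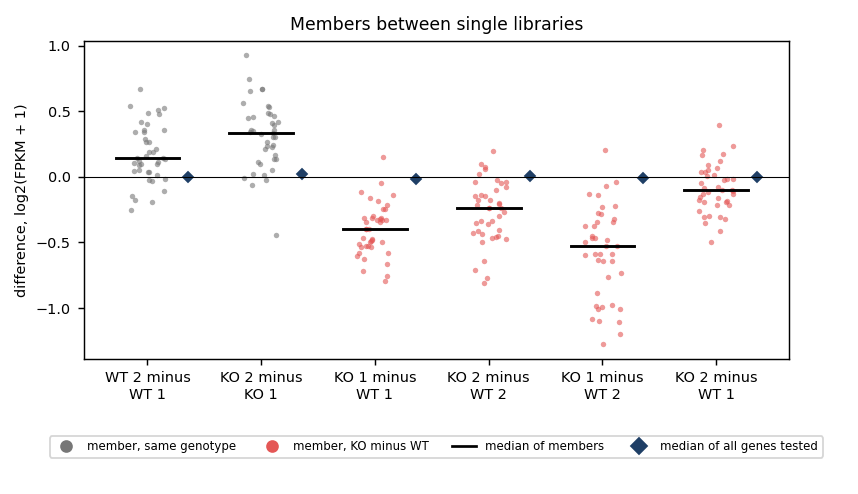
Difference in log2(FPKM + 1) of the 41 tested members between single libraries, within a genotype (grey) and between genotypes (red), with the median over members as a bar and the median over all genes tested as a diamond. The medians over members were 0.14 and 0.34 within genotypes and ran from -0.53 to -0.10 between genotypes.

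Markers of hepatocytes and of other liver cells also differed between libraries. Of 9 hepatocyte markers tested, 5 were lower and 4 higher in KO, against 50.3% of all genes tested lower. The 4 included Alb, whose difference of 7.46 rests on its listed 0 in WT 2. The median difference of the 9 markers was -0.02. Their median level relative to each gene's mean was -0.08 (WT 1), 0.10 (WT 2), -0.23 (KO 1) and 0.18 (KO 2), and their summed level was 36081, 10550, 34711 and 42755 FPKM, with Alb listed at 0 in WT 2. For 1 of the 9 every KO value was under every WT value, against 19.8% of all genes tested. This was Hnf4a, a transcription factor of hepatocyte identity, at 90.4 (WT 1), 95.8 (WT 2), 64.9 (KO 1) and 59.5 FPKM (KO 2). For 1 every KO value was above, against 18.3%. This was Apob, an apolipoprotein gene, at 518.4 (WT 1), 500.7 (WT 2), 565.6 (KO 1) and 622.5 FPKM (KO 2). The other 7 overlapped. Taken as a list, sinusoidal endothelial markers were highest in KO 1 (median 0.40 over 12 tested genes, summed level 109 FPKM) and lowest in KO 2 (-0.36, 67.5 FPKM), against 76 and 82.7 FPKM in the WT libraries. Single genes took other orders, with Dpp4 highest in KO 2 and Pecam1 and Cdh5 highest in WT 2. Every KO value was above every WT value for 2 and under for 0, against 18.3% and 19.8% of all genes tested, and 10 overlapped. Of 11 stellate cell and fibroblast markers 2 were tested, and the summed level was 25.1 FPKM in KO 1, 10.9 in KO 2, and 14.3 and 16.6 in WT. Most of that sum was Dcn, which was tested and overlapped between groups. Reln, the other tested marker, stood at 3.47 and 5.65 FPKM in the WT pair against 2.79 and 2.33 in the KO pair. It was the 1 of 2 with every KO value under every WT value, against 19.8% of all genes tested. Of 10 tested Kupffer cell and macrophage markers, 3 were lower and 7 higher in KO, against 50.3% of all genes tested lower. Every KO value was above every WT value for 5 and under for 1, against 18.3% and 19.8% of all genes tested. The summed level of the 13 listed markers was 381 to 385 FPKM in WT and 436 to 504 FPKM in KO, most of it Cd68. Without Cd68 it was 27.3 to 29.8 FPKM in WT and 38.7 to 43.3 FPKM in KO. Of 8 cholangiocyte markers 3 were tested, with a summed level of 37.5 to 41.6 FPKM in WT and 28.3 to 41.6 FPKM in KO. Among markers of plasmacytoid dendritic cells, potent producers of type I interferon, Siglech was listed at 0 in 3 libraries and stood at 0.087 FPKM in KO 2, and Ccr9, Spib and Klk1 were listed at 0 in all 4. The summed level of the 8 genes of that list was 3.97 to 5.67 FPKM in WT and 3.92 to 5.85 FPKM in KO, most of it Tcf4. Tcf4 was the only 1 of them that reached the filter, and its groups overlapped. Cox6a2, under the filter, was higher in KO, at 0.265 and 0 FPKM in the WT pair against 1.33 and 0.631 in the KO pair. Runx2 and Smim5 stood at 0 to 0.0641 FPKM. Of 12 lymphocyte markers 8, including Cd3d, Cd3g and Ncr1, were listed at 0 in all libraries, and the sum was 0.0716 to 0.2 FPKM in WT and 0.11 to 0.191 FPKM in KO. Of 8 neutrophil markers 3, Ly6g, Retnlg and S100a9, were listed at 0 in all libraries, and the sum was 0.268 to 0.987 FPKM in WT and 0.743 to 0.919 FPKM in KO. The part of these cells in the levels of the members was not tested.

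The transcription factors of the pathway were lower in KO at all 4 members, by modest amounts, against 50.3% of all genes tested. At all 4 every KO value was under every WT value, against 19.8% of all genes tested. Irf1, a factor induced by interferon gamma, stood at 20.6 (WT 1), 19.0 (WT 2), 16.1 (KO 1) and 16.4 FPKM (KO 2). The KO libraries agreed closely and lay below both WT libraries, and the difference was -0.26 on the log2 scale (SE 0.10). Stat2, the partner of IRF9 in the ISRE-binding complex, stood at 38.0 and 43.4 FPKM in the WT pair against 34.5 and 33.8 in the KO pair, again without overlap (difference -0.24, SE 0.11). Irf9, the DNA-binding subunit of that complex, stood at 25.0 and 25.8 FPKM in the WT pair against 21 and 23.2 in the KO pair (-0.19, SE 0.10). Irf7, which amplifies type I interferon production and is itself induced, stood at 63.8 and 64.5 FPKM in the WT pair against 42.3 and 62.8 in the KO pair. Its KO 2 library was thus close to WT 1, and the difference of -0.31 became -0.03 without KO 1. Irf9 shares exons with Rnf31 on the same strand, and Irf1 and Irf7 overlap other genes on the opposite strand, so their values are uncertain to that extent.

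Sensors of viral nucleic acid were expressed at 9.39 to 29.5 FPKM, and all 5 had a lower mean in KO, against 50.3% of all genes tested, with 2 of them without overlap, against 19.8%. Ifih1 encodes MDA5, which detects long double-stranded RNA, and stood at 16.1 and 17.5 FPKM in the WT pair against 12.4 and 14.7 in the KO pair, with both KO libraries lower (difference -0.29, SE 0.13). Eif2ak2 encodes PKR, the RNA-activated kinase that stops translation, and stood at 14.6 and 15.9 FPKM in the WT pair against 13.4 and 13.6 in the KO pair, also without overlap (-0.16, SE 0.11). Ddx58 encodes RIG-I, the sensor of RNA with a free triphosphate end, and was highest in KO 2, at 29.5 FPKM against 28.7 and 28.2 in WT and 23.1 in KO 1. Its difference of -0.12 (SE 0.14) changed sign without KO 1, to 0.05. Dhx58 (LGP2, a regulator of the other RNA helicases) and Zbp1, a sensor of Z-form nucleic acid, differed by -0.23 and -0.47, with overlapping libraries. Without KO 1 these were -0.02 and -0.20.

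The IFIT genes, whose products bind viral RNA and block its translation, split into 3 lower members, against 50.3% of all genes tested, and Ifit2. Ifit3 stood at 6.32 (WT 1), 9.54 (WT 2), 3.88 (KO 1) and 5.44 FPKM (KO 2), with a difference of -0.65 (SE 0.23). Ifit1 stood at 8.91 and 9.61 FPKM in the WT pair against 5.84 and 7.02 in the KO pair (-0.47, SE 0.14). For both genes, and for Ifit3b, the KO libraries lay below the WT libraries, against 19.8% of all genes tested. Ifit3b stood at 1.36 and 1.84 FPKM in the WT pair against 0.888 and 1.07 in the KO pair (-0.39, SE 0.20), on an estimated 30 to 60 fragments a library, and is a near copy of Ifit3, so fragments of the pair may be shared. Ifit2 stood at 1.98 and 2.39 FPKM in the WT pair against 2.30 and 2.17 in the KO pair (0.03, SE 0.17), with the KO values inside the WT range. The 4 genes form a cluster on chromosome 19, where Ifit2 ends 7111 bases before Ifit3 begins. The difference between these neighbours was not tested.

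The 2′-5′ oligoadenylate synthetase family includes enzymes that activate the RNA-degrading enzyme RNase L, though not every member need do so. Every KO value was under every WT value at 1 of 4 tested genes, near the 19.8% of all genes tested. Oasl2, an oligoadenylate synthetase-like gene, stood at 12.5 and 12.9 FPKM in the WT pair against 9.66 and 12.4 in the KO pair (difference -0.20, SE 0.14). Oas1a stood at 3.83 and 6.67 FPKM in the WT pair against 2.34 and 5.35 in the KO pair, and Oas1g at 1.15 and 1.85 and at 0.709 and 1.47 FPKM. In both Oas1 genes replicate 2 was higher than replicate 1 in each genotype and the groups overlapped (differences -0.40, SE 0.36, and -0.27, SE 0.27). Without KO 1 they were 0.06 and -0.00. Oas1a and Oas1g lie 8642 bases apart on chromosome 5 and are close copies, so their fragments may be shared as well. Oasl1, a further synthetase-like gene, followed another order, with 48.7 and 40.6 FPKM in the WT pair against 47.0 and 34.3 in the KO pair (-0.14, SE 0.18), and was the tested family member with its lowest value in KO 2. Oas2 (0.361 to 0.545 FPKM) and Oas3 (0.357 to 0.732 FPKM) lay under the filter, with overlapping groups.

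The Mx genes, Rsad2 and Cmpk2 held some of the largest differences. Rsad2 (ENSMUSG00000020641, chr12:26442746-26456452) encodes viperin, a radical SAM enzyme that makes a chain-terminating nucleotide, and stood at 50.1 (WT 1), 63.9 (WT 2), 29.3 (KO 1) and 40.5 FPKM (KO 2). The genotypes did not overlap, with a difference of -0.70 (SE 0.19, limma unadjusted p = 0.0106, adjusted p = 0.562). Cmpk2, the nucleotide kinase gene 12751 bases away on the opposite strand of chromosome 12, stood at 10.7 and 13.1 FPKM in the WT pair against 7.32 and 9.25 in the KO pair (-0.48, SE 0.16). The libraries took the same order in these neighbours, KO 1, KO 2, WT 1 and WT 2 from low to high. Mx2 (ENSMUSG00000023341, chr16:97535308-97560900), a dynamin-like GTPase gene, stood at 5.42 and 7.23 FPKM in the WT pair against 3.16 and 3.82 in the KO pair (-0.70, SE 0.18, limma unadjusted p = 0.00772, adjusted p = 0.547). Mx1 lay under the filter, at 0.629 and 1.13 FPKM in the WT pair against 0.713 and 0.509 in the KO pair, with overlapping groups. C57BL/6 mice are known to carry an Mx1 allele without a functional product.

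The ISG15 system tags proteins with the ubiquitin-like ISG15 and is reversed by the protease USP18, which also dampens the receptor. Isg15 stood at 82.4 (WT 1), 111 (WT 2), 51.6 (KO 1) and 82.8 FPKM (KO 2). WT 1 and KO 2 were nearly equal, the groups overlapped, and the difference of -0.54 (SE 0.25) was -0.20 without KO 1 and -0.87 without KO 2. Usp18 had the same order of libraries except that KO 2, at 49.5 FPKM, lay just under WT 1, at 51.3 FPKM, with 62.8 FPKM in WT 2 and 30.7 in KO 1 (-0.53, SE 0.23). Herc6, the ligase that attaches ISG15 in mice, stood at 7.69 and 6.61 FPKM in the WT pair against 5.91 and 6.47 in the KO pair (-0.18, SE 0.13). Trim25, a ubiquitin ligase that acts with RIG-I, had the tightest replicates of the group, with 42.2 and 41.3 FPKM in the WT pair against 37.5 and 37.3 in the KO pair (-0.15, SE 0.09). Parp9 and Dtx3l, whose products form an ADP-ribosylating ubiquitin ligase complex, overlap head to head on chromosome 16. Parp9 stood at 29.9 and 32.2 FPKM in the WT pair against 21 and 27.2 in the KO pair, and Dtx3l at 16.5 and 17.1 and at 11.6 and 15 FPKM. Their differences were alike (-0.36, SE 0.14, and -0.33, SE 0.14), but their shared exons make the 2 values dependent where strand was not used in counting. Parp14, a further ADP-ribosyltransferase gene, overlapped between groups, with 41.1 and 43.8 FPKM in the WT pair against 31.0 and 41.5 in the KO pair (-0.24, SE 0.15).

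The immunity-related GTPases attack or regulate membranes around intracellular pathogens and respond strongly to interferon gamma. All 5 members had a lower mean in KO, against 50.3% of all genes tested, and 4 had no overlap, against 19.8%. Iigp1 (Irga6) had the lowest difference of all members. It stood at 40.1 (WT 1), 56.6 (WT 2), 22.8 (KO 1) and 31.9 FPKM (KO 2), a difference of -0.80 (SE 0.22, limma unadjusted p = 0.0104, adjusted p = 0.562). Irgm1 (ENSMUSG00000046879, chr11:48861968-48871683), a regulator of the other GTPases, had the smallest p of all members, with 49.7 and 53.3 FPKM in the WT pair against 37.5 and 38.8 in the KO pair. Its replicates agreed within each genotype, and the difference was -0.42 (SE 0.10, limma unadjusted p = 0.0049, adjusted p = 0.519). Ifi47 (Irgd) stood at 13.5 and 15 FPKM in the WT pair against 10.7 and 11.5 in the KO pair (-0.34, SE 0.11). Irgm2 stood at 45.1 and 46.3 FPKM in the WT pair against 29.3 and 37.4 in the KO pair (-0.45, SE 0.14). Igtp (Irgm3) stood at 49.8 and 71.5 FPKM in the WT pair against 35.5 and 56.4 in the KO pair, with overlap (-0.41, SE 0.26), and differed by -0.08 without KO 1. Igtp and Irgm2 share exons on the same strand of chromosome 11 in the annotation, and Ifi47 shares exons with Olfr56, so these values are uncertain to that extent.

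The guanylate-binding proteins, larger GTPases with a related role, had a lower mean in KO at all 3 members, against 50.3% of all genes tested. Gbp2 stood at 14.8 and 14.6 FPKM in the WT pair against 11 and 13.2 in the KO pair (difference -0.27, SE 0.12). It was the 1 of 3 without overlap, against 19.8% of all genes tested with every KO value under every WT value. Gbp3 was highest in KO 2, at 16.7 FPKM against 14.1 and 15.5 in WT, and lowest in KO 1, at 9.58 FPKM. Its difference of -0.21 (SE 0.24) became 0.17 without KO 1. Gbp7 stood at 7.66 and 8.67 FPKM in the WT pair against 6.63 and 8.42 in the KO pair (-0.11, SE 0.15), and this became 0.04 without KO 1. The 3 genes lie in 1 cluster on chromosome 3 and resemble each other in sequence.

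Of the other 6 induced genes, 3 had KO libraries below WT libraries, against 19.8% of all genes tested. Rtp4, a chaperone of receptors with antiviral activity, stood at 24.8 and 32.0 FPKM in the WT pair against 16.9 and 23.4 in the KO pair (difference -0.48, SE 0.19). Ifi44 stood at 9.86 and 14.2 FPKM in the WT pair against 6.71 and 9.74 in the KO pair (-0.50, SE 0.23), with KO 2 just under WT 1. Ifi35, which binds NMI, stood at 39.9 and 50.8 FPKM in the WT pair against 33.4 and 37.6 in the KO pair (-0.34, SE 0.14). Bst2 encodes tetherin, which holds budding virus at the membrane, and was the most abundant member per length, at 447 and 518 FPKM in the WT pair against 359 and 459 in the KO pair (-0.25, SE 0.16), with overlap. Ifi27 stood at 174 and 193 FPKM in the WT pair against 140 and 196 in the KO pair (-0.15, SE 0.18), and became 0.10 without KO 1. Xaf1, a pro-apoptotic gene, showed no separation, at 29.4 and 26.5 FPKM in the WT pair against 25.2 and 30.5 in the KO pair (-0.01, SE 0.13). Its sign changed under quantile normalization and without WT 1 or KO 1.

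**Figure D4:**
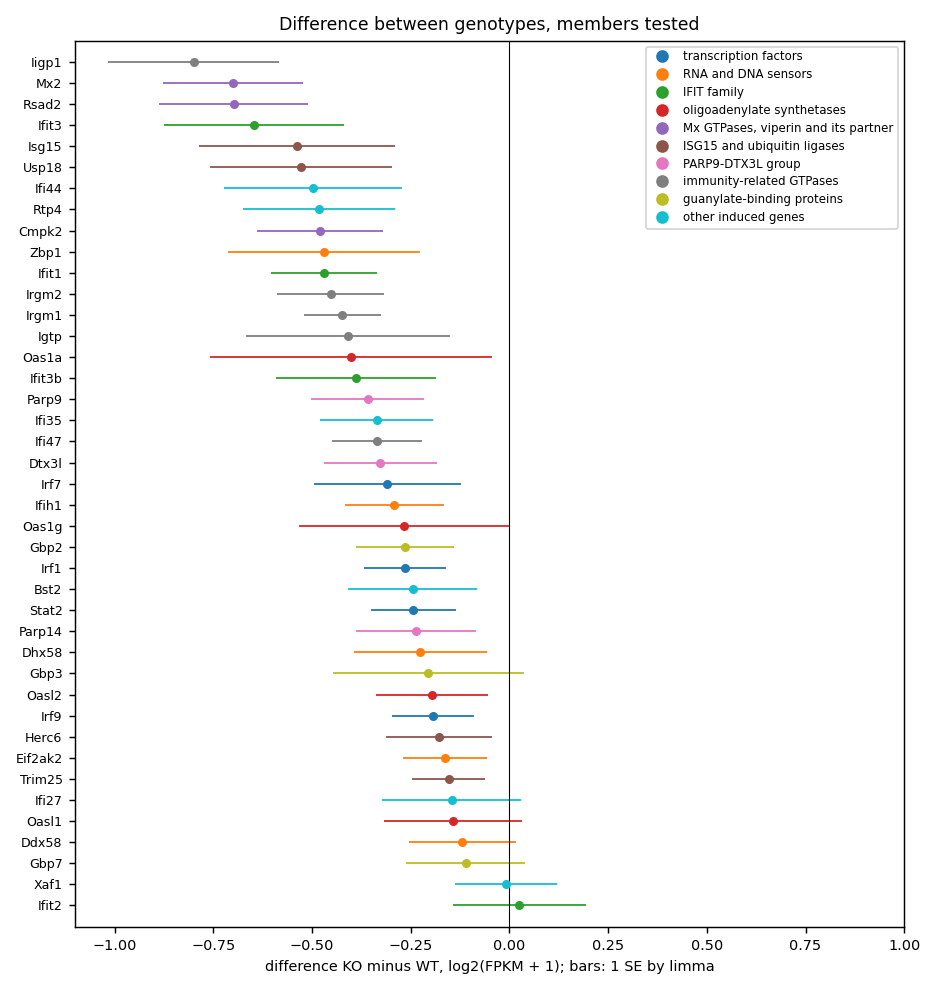
Difference between genotypes (KO minus WT, log2(FPKM + 1)) of the 41 tested members, ordered by size and coloured by role, with bars of 1 SE by limma. Values run from -0.80 for Iigp1 to 0.03 for Ifit2, and no member passed the adjusted threshold.

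By role, the median difference was -0.70 for the Mx genes, Rsad2 and Cmpk2 (3 tested), -0.43 for the IFIT family (4), -0.42 for the immunity-related GTPases (5), -0.35 for the ISG15 group (4) and -0.33 for the PARP9-DTX3L group (3). It was -0.29 for the other induced genes (6), -0.25 for the transcription factors (4), -0.23 for the sensors (5) and for the oligoadenylate synthetases (4), and -0.21 for the guanylate-binding proteins (3). These groups are small, several share neighbours or near copies, and the differences between them were not tested. In 9 members the difference stayed within 1.5 times its value whichever library was left out: Trim25, Irf1, Cmpk2, Rsad2, Mx2, Ifit1, Irgm1, Iigp1 and Ifi47. They were picked after their values were seen. The other 32 moved further or changed sign with 1 of the libraries left out. By promoter, the 18 tested members with an ISRE core in their window had a median difference of -0.34 (range -0.70 to -0.11), and the 14 with a window and no match had -0.23 (range -0.50 to 0.03). The medians were -0.26 for 9 members with GAS and -0.29 for 23 without. The ranges overlap widely.

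Upstream of the members, 19 of 21 interferon ligand genes were listed at 0 in all libraries, among them Ifnb1, Ifng and all Ifna genes searched. Ifnk stood at 0.579 to 0.834 FPKM and Ifnab at 0 to 0.249 FPKM, and neither separated the genotypes. A listed 0 can be a failed estimate, as may be the case for Alb, and does not show absence. The tested receptors and kinases were expressed and differed little, while the receptor gene Ifnlr1, at 0.533 to 0.758 FPKM, lay under the filter. Ifnar1 stood at 20.8 and 20.1 FPKM in the WT pair against 25.1 and 20.4 in the KO pair (difference 0.14, SE 0.13), and Ifnar2 at 33 and 41.1 and at 31.9 and 34.9 FPKM (-0.14, SE 0.13). The sign of Ifnar1 changed without KO 1 and that of Ifnar2 without WT 2. Of 13 tested receptor, kinase and feedback genes 9 were lower in KO, against 50.3% of all genes tested, with a median difference of -0.03. Every KO value was under every WT value for 3 and above for 1, against 19.8% and 18.3% of all genes tested. Within that list Pias1, a SUMO ligase of the feedback genes, stood at 4.81 and 4.79 FPKM in the WT pair against 3.55 and 3.51 in the KO pair (-0.36, SE 0.13). The genotypes did not overlap.

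Of 15 tested adaptors, kinases and factors of nucleic acid sensing 12 were lower in KO, against 50.3% of all genes tested. Their median difference was -0.12. Every KO value was under every WT value for 8 and above for 1, against 19.8% and 18.3% of all genes tested. Trim56, a ubiquitin ligase linked to STING and to antiviral defence, stood at 11.8 and 11.6 FPKM in the WT pair against 8.85 and 8.95 in the KO pair (-0.36, SE 0.11, limma adjusted p = 0.586), with close replicates. The factor genes Irf2, Irf5 and Irf8 differed by -0.27, -0.26 and -0.30, each without overlap, and Irf8 by -0.16 without KO 2. A list of 67 further interferon-induced genes, 48 of them tested, had a median of -0.19. Of the 48, 41 were lower, against 50.3% of all genes tested, and 7 higher. The KO values were all lower for 19 of the 48, against 19.8% of all genes tested, and all higher for 2, against 18.3%. These 2 were Plscr1 and Ifi27l2a, which were named after their values were seen. Cxcl10, a chemokine induced by interferon gamma, stood at 21.9 and 23.1 FPKM in the WT pair against 14.0 and 17.6 in the KO pair (-0.49, SE 0.13, limma adjusted p = 0.562). Tgtp1, a further immunity-related GTPase gene, stood at 2.18 and 4.82 FPKM in the WT pair against 0.923 and 2.34 in the KO pair. The apolipoprotein L genes Apol9a and Apol9b took the same order of libraries as each other, so they are not separate observations. The differences were -0.76 (Tgtp1), -0.50 (Apol9a) and -0.45 (Apol9b), all with overlapping libraries. Without KO 1 these were -0.37, -0.11 and -0.11, and Tgtp1 was -0.33 without WT 2. The scramblase gene Plscr1 lay the other way, at 144 and 130 FPKM in the WT pair against 175 and 158 in the KO pair (0.28, SE 0.11). In all 3 lists 0 genes passed the adjusted threshold by limma, and 2 of 13, 2 of 15 and 7 of 48 had an unadjusted p under 0.05, against 7.29% of all genes tested. The median library level of the 48 genes was 0.02 (WT 1), 0.20 (WT 2), -0.20 (KO 1) and 0.00 (KO 2), the same order as in the members.

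**Figure D5:**
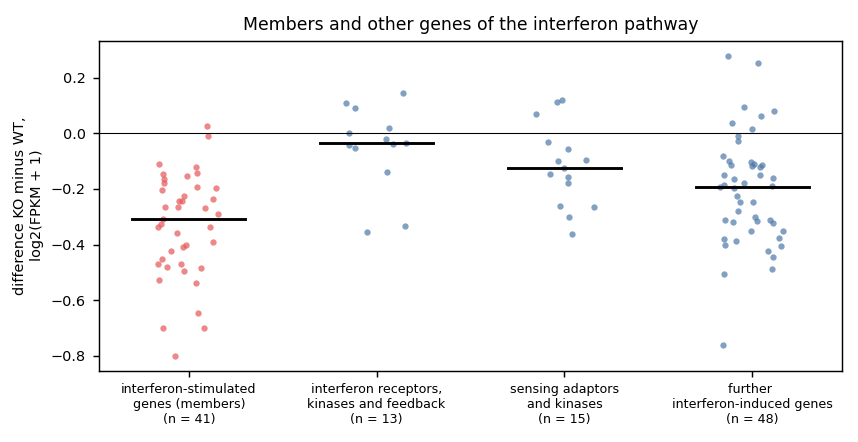
Difference between genotypes (KO minus WT, log2(FPKM + 1)) for the 41 tested members and for 3 lists of other interferon pathway genes, each point a gene and each bar a median. The medians were -0.31, -0.03, -0.12 and -0.19 from left to right.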

How the data were processed

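RNA of 4 hepatocyte cultures was sequenced from TruSeq stranded mRNA libraries, per the labels' protocols. The authors deposited 1 value per gene and library, read here as FPKM. That unit rests on the tools in the submitters' processing notes (STAR 2.5.0, Cufflinks and Cuffdiff 2.2.1, build mm10), the identifier column of the file header and the values, since no column names it. No source used here gives the annotation or whether strand was used. FPKM are already divided by length and depth, so no count model was used. Cufflinks shares fragments among transcripts, so whole fragments were not recovered, and it can list a gene at 0 when an estimate fails. Depth was estimated from the lowest values of genes with 1 transcript, assuming fragments of 200 bases, and covers counting error only.

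Identifiers were matched to GENCODE M21 (21984 of 22079). Genes whose 4 values averaged 1 FPKM or more were fitted as log2(FPKM + 1), which understates changes of low genes, with limma 3.58.1 in R 4.3.3 (eBayes with trend, genotype as the only term, two-sided, Benjamini-Hochberg over all 10407 genes, threshold 0.05). The fit was tested on simulated data with known changes in independent genes, which does not cover genes that move together by library. Prom1 was read from the same model without the filter. With 2 libraries a genotype, SDs are not given and the SE is limma's. Members and lists were chosen with earlier results of these data known, so no p was adjusted over a list and lists are described by counts and medians. The text names Prom1, all 44 members and, of each pathway list, at most 4 tested genes with the largest difference, and a few genes named for other reasons, such as Plscr1 and Ifi27l2a, chosen after their values were seen. Some items that this rule names are not reported here. Other pseudocounts, filters, scalings, a replicate block and each left-out library were tried. Chosen after seeing the data were the counts at an unadjusted p and the values of Prom1 and of named pathway genes under these alternatives, the members without shared exons, and the count of separated members with a library left out.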

Additional observations from a re-analysis of the deposited data

How the results depend on the processing

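The 41 tested members gave 487 refitted values over 12 other ways of processing, of which 11, in 8 members, had another sign and none passed the adjusted threshold (lowest adjusted p 0.15 by limma). With a library left out, the difference ran from -0.29 to 0.05 for Ddx58, -0.07 to 0.12 for Ifit2, -0.87 to 0.06 for Oas1a, -0.37 to 0.08 for Oasl1, -0.58 to 0.17 for Gbp3, -0.26 to 0.04 for Gbp7, -0.39 to 0.10 for Ifi27 and -0.14 to 0.13 for Xaf1. The sign changed without KO 1 for all of these except Oasl1, which changed without KO 2, and without WT 1 for Ifit2 (-0.07) and Xaf1 (0.06). Under quantile normalization Xaf1 was 0.01. Outside the members, Ifnar1 ran from -0.00 without KO 1 to 0.29, and Ifnar2 from -0.29 to 0.02 without WT 2. The cause of these changes was not tested. Leaving out a library leaves its genotype with 1, which limma then assumes to vary like the other genotype. The count of all genes called was 0 to 8 with a library left out, reaching 8 without WT 1 and 5 without KO 1. The count of members at an unadjusted p under 0.05 was 3 to 28, and that of all genes 318 to 1227. The number of members lower in KO stayed at 35 to 40 of 41 with a library left out, and the median ran from -0.45 to -0.18. Without the 8 members that share exons with another measured gene, 32 of 33 were lower, with a median of -0.27. With pseudocounts of 0.1 and 0.01 the median was -0.34, and for genes averaging 5 FPKM or more it was -0.30 over 36 members, all lower. The difference of Prom1 was -2.96 and -5.16 with those pseudocounts and ran from -1.12 to -0.62 with a library left out.

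The titles number the replicates 1 and 2 in both genotypes, and deviations of same-numbered libraries correlated at 0.151. With 2 such pairs this does not show that the numbers pair the samples. With the number as a replicate block, 0 members and 0 genes passed the adjusted threshold, and 21 members instead of 12 had an unadjusted p under 0.05, while the count over all genes tested went from 759 to 1054. Depth limits the members near 1 FPKM most: Oas2, Oas1g, Mx1, Oas3 and Ifit3b rest on an estimated 24 to 62 fragments a library.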
